A study of Mus musculus with 12 samples.

Results

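The insulin-like growth factor (IGF) genes described here are 9 genes chosen by name: the ligand Igf1, the receptors Igf1r and Igf2r, and the binding proteins Igfbp2 to Igfbp7. All 9 were found, by their Ensembl identifiers, among the 46983 genes counted in the cardiac left ventricle (LV) of mice, of which 27093 had at least 1 read. The hearts came from offspring aged 12 weeks on the FVB background, whose Wt mothers were either left untreated or made diabetic with streptozotocin before mating with Hif1a+/- males. Hif1a encodes the oxygen-regulated subunit of the transcription factor HIF-1, and Hif1a+/- offspring carried 1 deleted allele in every tissue, not in the heart alone. There were 4 groups of 3 LVs: Wt from non-diabetic pregnancy, Wt from diabetic pregnancy, Hif1a+/- from non-diabetic pregnancy and Hif1a+/- from diabetic pregnancy. Diabetic and non-diabetic refer below to the mother, and each LV is named by the animal number in its label.

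IGF1 signals through the IGF1 receptor, a tyrosine kinase that activates the PI3K and Akt pathway and supports the growth and survival of heart muscle cells. The large IGF2 receptor, which also binds mannose 6-phosphate, takes up IGF2 for breakdown in lysosomes and sorts lysosomal enzymes. IGF-binding proteins are secreted, hold IGFs in tissue and blood, and restrict or prolong the access of the ligand to its receptor, and several of them are cut by proteases that free the ligand. In the heart most of this system is made by stromal and vascular cells, and the receptor is present on many cell types including the cardiac myocyte.

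The count of reads on genes was between 16132442 and 39812939 per library, and levels are given as CPM, the reads of a gene relative to the TMM-scaled total of its library. The 5 cardiomyocyte markers (Myh6, Actc1, Tnnt2, Tnni3 and Pln) summed to between 65211 and 75048 CPM, whereas 4 atrial markers summed to at most 70.8 CPM, so the libraries carried the markers of ventricular muscle. Labels gave the sex as female and the series' design text as male. The 4 Y-linked genes summed above Xist in 11 of 12 libraries and below it in Hif1a+/- diabetic replicate 72, and the differences of Igfbp3, Igfbp4 and Igfbp6 and the sum of the binding proteins are also given without that library. Reads for Hif1a itself were higher in the mutants, without overlap between the genotypes within either pregnancy. They were at 55.7, 57.0 and 71.8 CPM in Wt LVs without and 47.9, 59.3 and 58.6 CPM with maternal diabetes. In Hif1a+/- LVs they were at 89.4, 78.8 and 88.9 CPM without and 70.5, 64.8 and 81.5 CPM with it. Over both pregnancies the log2 fold change was 0.43 (SE 0.09), with an adjusted p of 0.596 by edgeR and 0.0314 by DESeq2. The libraries read the 3′ ends of transcripts, and the counts do not show which allele a read came from. This measure is therefore no check of the genotype, and why these reads were higher in the mutants was not tested. In bulk tissue, fewer cells of a type and less RNA per cell cannot be told apart.

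All 9 members had reads in the LV, but their levels spanned a wide range. Per kilobase of exon, the order of the mean level over the 12 LVs was Igfbp7 (125.0 CPM per kb), Igf2r (28.6), Igfbp4 (27.3), Igfbp5 (23.0), Igfbp6 (16.4), Igfbp3 (7.86), Igf1 (2.25) and Igf1r (0.695), with Igfbp2 last. The ranges over the 12 LVs overlapped between Igf2r and Igfbp4, Igfbp4 and Igfbp5, Igfbp5 and Igfbp6, and Igfbp6 and Igfbp3, so these neighbours were not separated by the spread across LVs. Within single LVs, however, Igfbp6 lay above Igfbp3 in 12 of 12, against 8 of 12 for Igf2r over Igfbp4 and 10 of 12 for each of the other two pairs. The step from Igf2r up to Igfbp7 and the steps from Igfbp3 down to Igf1, Igf1r and Igfbp2 did not overlap in any library. Reads from the 3′ end do not scale with transcript length. For these libraries the division by length therefore favours short genes, and the order in CPM is the one to read. Without the division by length the order of the mean CPM was Igf2r (266.0), Igfbp7 (151.1), Igfbp5 (138.0), Igfbp4 (120.4), Igfbp3 (24.6), Igf1 (22.3), Igfbp6 (18.2) and Igf1r (11.7). By these means Igf2r lay above Igfbp7, and Igfbp6 lay below Igf1. By the mean over the 12 LVs, Igfbp3, Igfbp4, Igfbp5 and Igfbp7 lay above Igf1 and Igf1r on either scale. Igfbp6 lay above Igf1 only per kilobase, and Igfbp2 lay below Igf1 and Igf1r. In CPM, however, the ranges of Igfbp3 (18.0 to 45.8) and Igf1 (17.2 to 29.6) overlapped. The mean CPM of Igfbp3 was below that of Igf1 in both non-diabetic groups and above it in both diabetic groups.

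**Figure D1:**
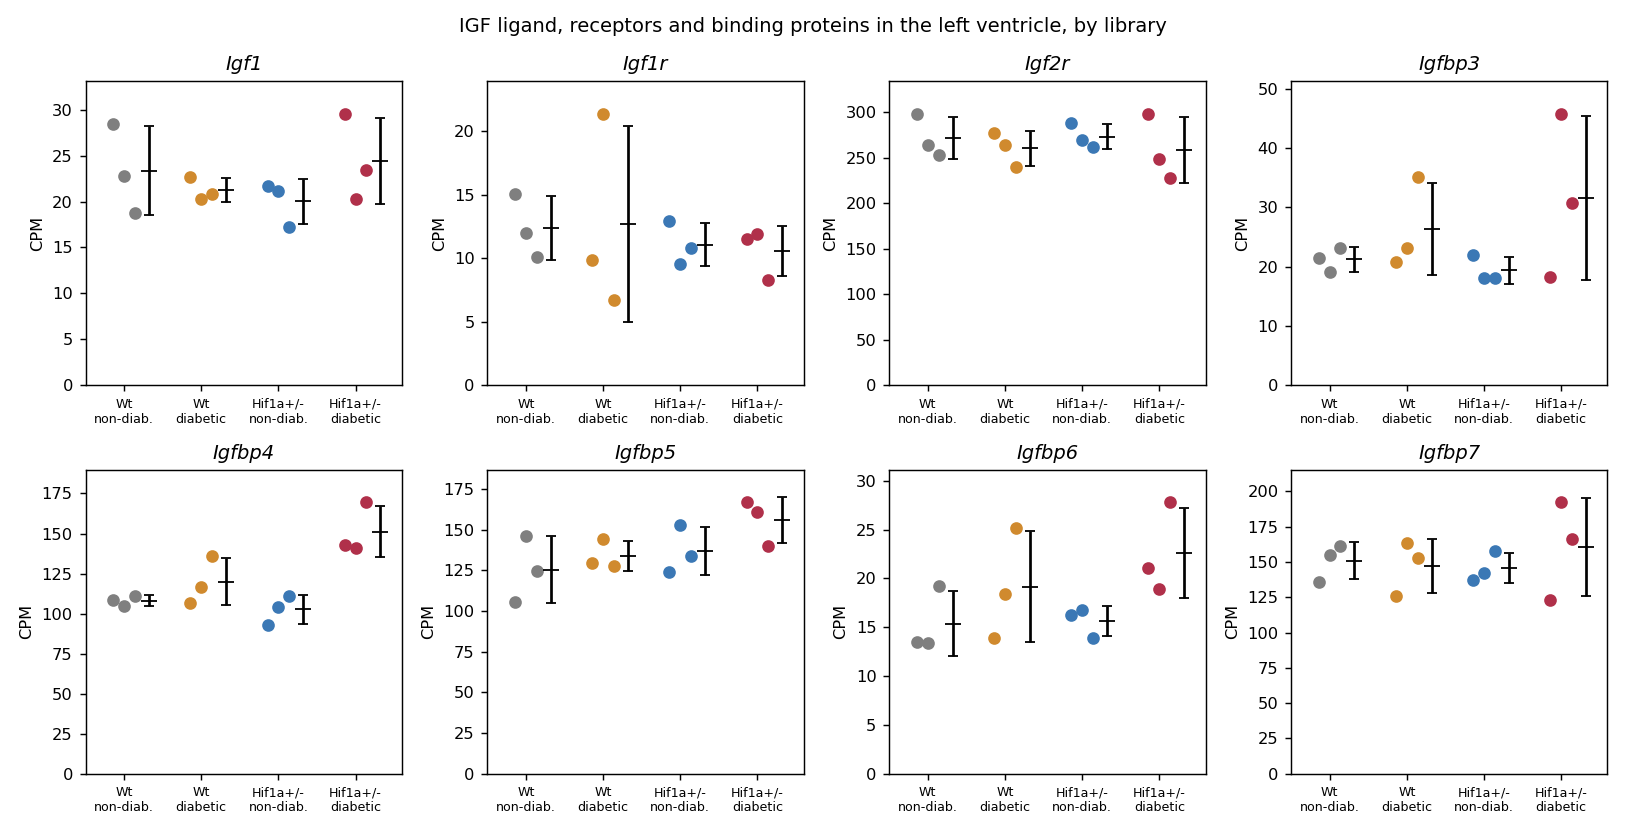
Level in CPM (vertical axis, from 0) of 8 members in each of the 12 LVs, by group; points are libraries, and the bar beside them is the mean and SD of 3. Igfbp4 lies at 141.0 CPM or above in the 3 diabetic Hif1a+/- LVs and at 136.0 CPM or below in the other 9, while Igf1, Igf1r and Igf2r overlap between all groups.

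The ligand Igf1 (chromosome 10, 87858265 to 87937042, GRCm38) was at 28.5, 22.8 and 18.8 CPM in non-diabetic Wt LVs and at 22.7, 20.3 and 20.8 CPM in diabetic Wt LVs. In Hif1a+/- LVs it was at 21.7, 21.2 and 17.2 CPM without and at 29.6, 20.3 and 23.4 CPM with maternal diabetes. The groups overlapped, and the highest value of each pregnancy belonged to a different genotype. Diabetic and non-diabetic LVs differed by a log2 fold change of -0.13 (SE 0.16) in Wt and of 0.29 (SE 0.16) in Hif1a+/-, with adjusted p = 1.0 and 0.474 by edgeR's quasi-likelihood test. The annotation places the antisense gene Igf1os on the opposite strand within Igf1, and reads of the pair could not be told apart without knowing the strand setting of the counting.

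The signalling receptor Igf1r (chromosome 7, 67952827 to 68233668) had the widest relative spread of the 3 ligand and receptor genes. It was at 15.1, 12.0 and 10.1 CPM in non-diabetic Wt, 9.87, 21.4 and 6.74 CPM in diabetic Wt, 12.9, 9.52 and 10.8 CPM in non-diabetic Hif1a+/- and 11.5, 11.9 and 8.26 CPM in diabetic Hif1a+/-. The highest and the lowest of the 12 values both came from diabetic Wt LVs. The log2 fold change with maternal diabetes was 0.06 (SE 0.32) in Wt and -0.07 (SE 0.32) in Hif1a+/-, and neither passed the test (edgeR adjusted p = 1.0 and 0.944). The clearance receptor Igf2r (chromosome 17, 12682406 to 12769664), by contrast, lay between 228.2 and 298.7 CPM in all 12 LVs with a coefficient of variation of 8.3%. Its group means were 271.8 ± 23.4, 260.3 ± 19.2, 273.3 ± 13.7 and 258.5 ± 36.3 CPM (SD, n = 3), in the order of the groups above, and its log2 fold changes among them were between -0.08 and 0.01, each with an SE of 0.11. Igf2r lies opposite the antisense gene Airn, with the same limit on strand as Igf1.

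The means of Igfbp3 to Igfbp7 were each highest in diabetic Hif1a+/- LVs, and for Igfbp4 the 3 LVs of that group lay above the other 9. Igfbp4, a secreted inhibitor of IGF action that the protease PAPP-A cleaves, was at 108.7, 104.6 and 111.0 CPM in non-diabetic Wt, 106.9, 116.7 and 136.0 CPM in diabetic Wt. In Hif1a+/- LVs without maternal diabetes it was at 92.8, 104.2 and 110.9 CPM. In diabetic Hif1a+/- it was at 142.7, 141.0 and 169.5 CPM. The mean of diabetic Hif1a+/- was 1.47-fold that of non-diabetic Hif1a+/- (log2 fold change 0.56, SE 0.11). It was 1.4-fold that of non-diabetic Wt (0.48, SE 0.11) and 1.26-fold that of diabetic Wt (0.33, SE 0.11). In Wt LVs maternal diabetes went with a log2 fold change of 0.15 (SE 0.11), and without diabetes the genotypes differed by -0.08 (SE 0.11).

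The tools disagreed on this difference. By edgeR, with p values adjusted over the 14706 genes tested, diabetic against non-diabetic Hif1a+/- LVs had an adjusted p of 0.178, above the threshold of 0.1 that the study used. DESeq2, the tool the study used, gave an adjusted p of 0.00163, and limma-voom with sample weights also passed Igfbp4. Without the filter on low counts edgeR gave an adjusted p of 0.000195 for Igfbp4, and Igfbp3 and Igfbp6 then passed as well (0.000671 and 0.0251). The log2 fold change of Igfbp3 hardly moved between these edgeR fits (0.70 and 0.71), whereas its unadjusted p went from 0.0218 to 2.53e-06. The share of all genes past the threshold without the filter was not counted, so these calls have no background. Against non-diabetic Wt the adjusted p of Igfbp4 was 0.315 by edgeR and 0.0217 by DESeq2, and against diabetic Wt it was 0.862 and 0.624. The diabetes effects in the 2 genotypes differed by 0.41 (SE 0.15) on the log2 scale, with an adjusted p of 0.998 by edgeR, so the diabetes effect on Igfbp4 was not shown to differ between the genotypes. Igfbp4 is in the list of changed genes that the study drew from these same libraries, and its inclusion there is not independent evidence. These comparisons share libraries: the diabetic Hif1a+/- LVs enter all of those with a high value.

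Leaving out 1 library at a time moved the log2 fold change of Igfbp4 between diabetic and non-diabetic Hif1a+/- LVs between 0.47 and 0.63. The edgeR adjusted p fell to 0.0892 without Hif1a+/- diabetic replicate 72, whose sex markers differed, and to 0.0965 without Wt diabetic replicate 80, and it was above 0.1 without any of the other 10. In DESeq2 the difference passed in all 12 such fits. Without replicate 72 the log2 fold change of Igfbp4 was 0.61 in this comparison, 0.53 against non-diabetic Wt, 0.38 against diabetic Wt and 0.38 for diabetes over both genotypes.

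Besides Igfbp4, the members Igfbp6 and Igfbp3 reached an unadjusted p under 0.05 between Hif1a+/- LVs with and without maternal diabetes. Igfbp6, a secreted protein that prefers IGF2 over IGF1, was at 16.3, 16.8 and 13.9 CPM in non-diabetic and 21.1, 18.9 and 27.8 CPM in diabetic Hif1a+/- LVs, without overlap (log2 fold change 0.52, SE 0.21, edgeR adjusted p = 0.371). In Wt it was at 13.5, 13.4 and 19.2 CPM without and 13.9, 18.4 and 25.2 CPM with maternal diabetes, where the groups overlapped (0.31, SE 0.21, edgeR adjusted p = 1.0). The 2 effects differed by 0.21 (SE 0.30), with an edgeR adjusted p of 0.998. Without replicate 72 the log2 fold change of Igfbp6 in Hif1a+/- LVs was 0.64 (edgeR adjusted p = 0.464).

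Igfbp3, the main carrier of IGFs in the circulation, was at 22.0, 18.0 and 18.0 CPM in non-diabetic and 18.2, 45.8 and 30.7 CPM in diabetic Hif1a+/- LVs (log2 fold change 0.70, SE 0.27, edgeR adjusted p = 0.362). The highest value was that of replicate 72, and without it the log2 fold change was 0.34. The diabetes effect on Igfbp3 over both genotypes was 0.50 (SE 0.19, edgeR adjusted p = 0.379) with and 0.32 without that LV, and the difference from non-diabetic Wt was 0.57 (SE 0.27, edgeR adjusted p = 0.562) with and 0.20 without it. In Wt LVs Igfbp3 was at 21.5, 19.0 and 23.1 CPM without and 20.7, 23.2 and 35.1 CPM with maternal diabetes, a log2 fold change of 0.31 (SE 0.27). One diabetic LV of each genotype, replicate 66 in Hif1a+/- and replicate 50 in Wt, stayed among the non-diabetic values.

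Promoters of these 3 genes are shown because 1 allele of Hif1a was deleted in the mutants and HIF-1 binds DNA at a core of ACGTG or GCGTG. Each sequence is the RefSeq window on GRCm38.p6, from 250 bases before to 50 after the RefSeq start, 5′ to 3′ on the strand of the gene. The GENCODE start of Igfbp6, at 102144362, lies downstream of its window, so that window holds only bases before it. The GENCODE starts of Igf1 and Igf1r also lie outside their windows. Capitals mark a match to either core on either strand (CACGT or CACGC where the match is on the other strand); matches may overlap.
Igfbp4, chr11:99040994-99041293, plus strand: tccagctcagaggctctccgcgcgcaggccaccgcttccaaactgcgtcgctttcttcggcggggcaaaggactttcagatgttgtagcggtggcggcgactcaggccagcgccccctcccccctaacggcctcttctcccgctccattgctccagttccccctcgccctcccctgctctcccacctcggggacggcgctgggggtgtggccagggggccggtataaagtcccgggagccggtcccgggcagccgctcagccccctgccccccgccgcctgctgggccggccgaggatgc
Igfbp6, chr15:102143936-102144235, plus strand: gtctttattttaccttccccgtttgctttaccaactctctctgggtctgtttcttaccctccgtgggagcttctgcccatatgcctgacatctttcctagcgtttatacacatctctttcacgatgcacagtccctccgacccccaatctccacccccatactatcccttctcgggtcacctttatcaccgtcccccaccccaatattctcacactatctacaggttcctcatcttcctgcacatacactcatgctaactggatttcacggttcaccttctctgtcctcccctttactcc
Igfbp3, chr11:7213874-7214173, minus strand: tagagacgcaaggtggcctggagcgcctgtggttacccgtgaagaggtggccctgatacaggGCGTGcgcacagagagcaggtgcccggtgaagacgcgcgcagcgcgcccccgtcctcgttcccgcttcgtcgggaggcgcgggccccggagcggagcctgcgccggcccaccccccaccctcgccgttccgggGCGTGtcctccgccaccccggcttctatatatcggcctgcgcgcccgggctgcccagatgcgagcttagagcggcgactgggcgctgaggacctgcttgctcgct
Igfbp4 and Igfbp6 held 0 matches and Igfbp3 held 2, both on the strand of the gene. Of 32851 promoters of the same length, 14380 (43.8%) held at least 1 match. Among the other members, the windows of Igf1, Igf1r, Igf2r, Igfbp2 and Igfbp7 held matches and that of Igfbp5 held 0; Igf2r had 6, counted on both strands. A match is only a run of letters, and its absence says nothing of HIF-1 outside this window.

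Igfbp5 and Igfbp7 made up the larger part of the binding protein transcripts and differed less. Igfbp5, a matrix-bound binding protein, was at 105.4, 146.2 and 124.7 CPM in non-diabetic Wt and 129.2, 144.5 and 127.5 CPM in diabetic Wt. It was at 123.9, 152.7 and 134.0 CPM in non-diabetic and 166.8, 161.0 and 139.8 CPM in diabetic Hif1a+/-. Only the comparison at the 2 ends of the design had an unadjusted p under 0.05: diabetic Hif1a+/- against non-diabetic Wt differed by 0.31 (SE 0.12) on the log2 scale, with an edgeR adjusted p of 0.507, and the groups overlapped. Igfbp7, which binds IGFs weakly and is made by vascular endothelium, lay between 123.0 and 192.3 CPM. Both of these values came from diabetic Hif1a+/- LVs (123.0, 192.3 and 166.5 CPM), so that this group spanned the range of the other 9. Its log2 fold changes between groups lay between -0.05 and 0.14 with an SE of 0.14. Igfbp7 overlaps Polr2b and Gm34648 on the opposite strand.

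Igfbp2, a binding protein abundant in fetal tissues, was at the limit of detection. The 6 Wt libraries held 0 reads, 2 non-diabetic Hif1a+/- libraries held 3 reads each and 1 diabetic Hif1a+/- library held 2, a total of 8. A library with 0 reads allows a level of up to 3 reads, which is 0.0754 to 0.186 CPM at these depths, counting error only. The values above 0 were 0.117, 0.151 and 0.0514 CPM, none of them above that range of limits. Igfbp2 was kept out of the tests by the filter on low counts. In the edgeR fit without that filter, 3 comparisons had an unadjusted p under 0.05 for Igfbp2: Hif1a+/- against Wt without maternal diabetes and over both pregnancies, each with an edgeR adjusted p of 1.0, and any difference among the 4 groups, with an edgeR adjusted p of 0.581.

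**Figure D2:**
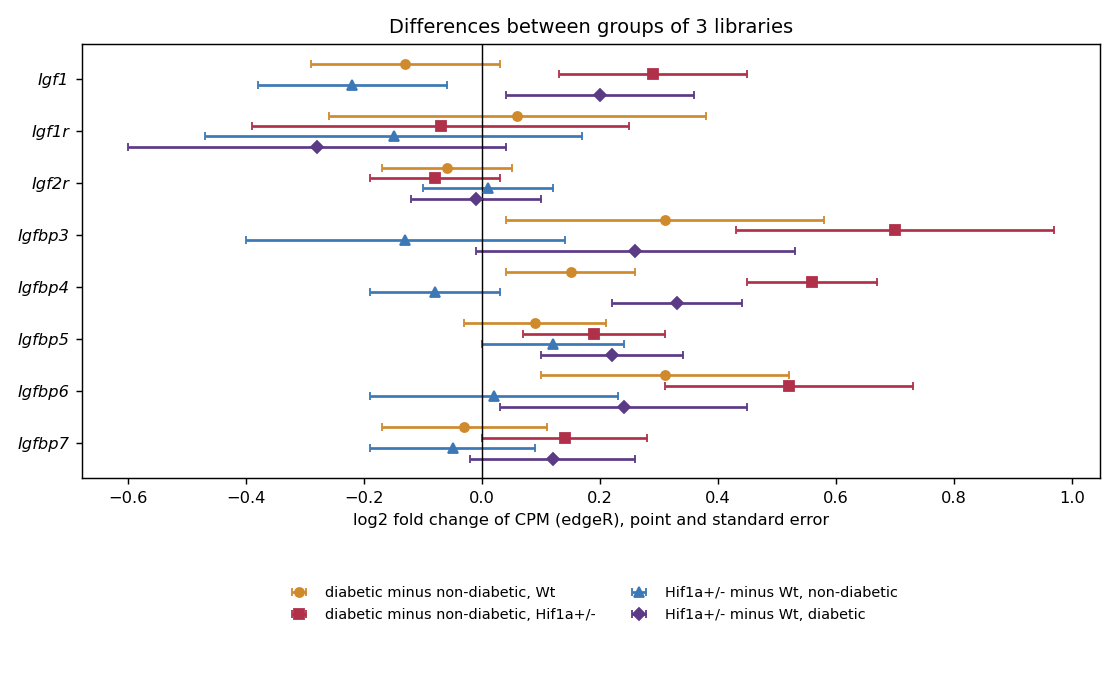
Log2 fold change (horizontal axis) with its standard error for 8 members in the 4 comparisons between groups that differ in 1 factor, from the edgeR fit of all 12 libraries. The difference with maternal diabetes in Hif1a+/- LVs is 0.56 for Igfbp4, 0.70 for Igfbp3 and 0.52 for Igfbp6, and none passed an adjusted p of 0.1.

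Counted over the members, 0 of 8 passed edgeR's test at an adjusted p of 0.1 in any of the 9 comparisons, and neither did any of the 14706 genes tested (0.0%). Between Hif1a+/- LVs with and without maternal diabetes, 3 of 8 members reached an unadjusted p under 0.05, all 3 higher after diabetic pregnancy, against a background of 12.0% of all genes (5.72% higher). Without overlap and higher were 2 of 8, Igfbp4 and Igfbp6, against 11.2% of all genes, and 0 of 8 were lower without overlap, against 13.2%. DESeq2 passed 1 of 8 (Igfbp4) and 1.44% of the genes it tested, and limma-voom passed 2 of 8 (Igfbp4 and Igfbp6) and 6.37% of all genes. The median log2 fold change was 0.24 over the 8 members and -0.006 over all genes, with 6 members higher and 2 lower.

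In diabetic Hif1a+/- against non-diabetic Wt LVs, 3 of 8 members (Igfbp4, Igfbp5 and Igfbp6) had an unadjusted p under 0.05, all higher, against a background of 8.85% (4.09% higher). One of them, Igfbp4, did not overlap, against 7.47% of genes higher in this way, and 0 members were lower in this way, against 7.11%. DESeq2 passed 1 of 8, Igfbp4, and 0.453% of its genes, and limma-voom passed 0 of 8 and 0.0136%. In diabetic Hif1a+/- against diabetic Wt it was 1 of 8, Igfbp4, higher, against 5.35% (2.96% higher), again without overlap (4.32%). DESeq2 passed 0 of 8 (0.155%) and limma-voom 0 of 8 (0.0068%). Over both genotypes, diabetic against non-diabetic LVs gave 3 of 8 (Igfbp3, Igfbp4 and Igfbp6), all higher, against 11.3% (5.47% higher). The log2 fold change of Igfbp4 was then 0.35 (SE 0.07) with an adjusted p of 0.154 by edgeR and 0.00762 by DESeq2, which passed 1 of 8 members and 1.46% of its genes. By limma-voom its adjusted p was 0.115, and 0 of 8 members and 0.265% of genes passed.

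In diabetic against non-diabetic Wt LVs, 0 of 8 members had an unadjusted edgeR p under 0.05, against 2.78% of all genes (1.17% higher), 0 of 8 were higher without overlap (2.14%), and DESeq2 and limma-voom passed 0 (0.0148% and 0.0% of genes). In Hif1a+/- against Wt LVs without maternal diabetes the number was also 0 of 8, against 0.959%, with 0 by the other tools (0.00369% and 0.0%), and 0 of 8 were higher (2.55%) or lower (2.26%) without overlap. The members' median log2 fold change was 0.07 in the first and -0.06 in the second. For the genotype over both pregnancies it was 0 of 8 against 2.69%, and DESeq2 passed 0 of 8 (0.0259%). The interaction of genotype and diabetes gave 1 of 8, Igfbp4, positive, against 2.52% (1.49% positive).

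The transcripts of the binding proteins were also summed, as a description of their joint level. No protein was measured, and Igfbp7, the largest part of the sum in non-diabetic Wt, binds IGFs weakly. The sum is therefore no measure of how much ligand could be held. The sum of Igfbp2 to Igfbp7 was 421.0 ± 31.1 CPM in non-diabetic Wt, 446.4 ± 43.3 in diabetic Wt, 420.2 ± 24.0 in non-diabetic Hif1a+/- and 521.8 ± 44.9 in diabetic Hif1a+/- (SD, n = 3). Diabetic Hif1a+/- LVs, at 471.9, 559.1 and 534.4 CPM, lay above the 6 non-diabetic LVs, whose highest was 439.2 CPM, and overlapped with diabetic Wt, whose highest was 476.4 CPM. Without replicate 72, which had the highest sum, the mean of diabetic Hif1a+/- was 503.1 CPM. The sum was 18.7 ± 4.91, 21.1 ± 3.14, 21.3 ± 3.6 and 22.1 ± 5.84 times the CPM of Igf1 in the same order. These ratios overlapped between all groups. Igf2, which encodes the other ligand, was left out of this ratio. The mean CPM of Igf2 was above that of Igf1 in each group, and 35.8 against 22.3 CPM over the 12 LVs. The ratio is therefore no measure of the binding proteins relative to both ligands. In non-diabetic Wt, Igfbp7 held 35.8% ± 0.771 of the sum, Igfbp5 29.7% ± 3.2, Igfbp4 25.8% ± 2.23, Igfbp3 5.06% ± 0.646 and Igfbp6 3.64% ± 0.673. In diabetic Hif1a+/- the share of Igfbp4 was 29.1% ± 3.4 and that of Igfbp7 30.5% ± 4.2, with the lowest share of Igfbp4, 25.2% in replicate 72, inside the range of the other groups.

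**Figure D3:**
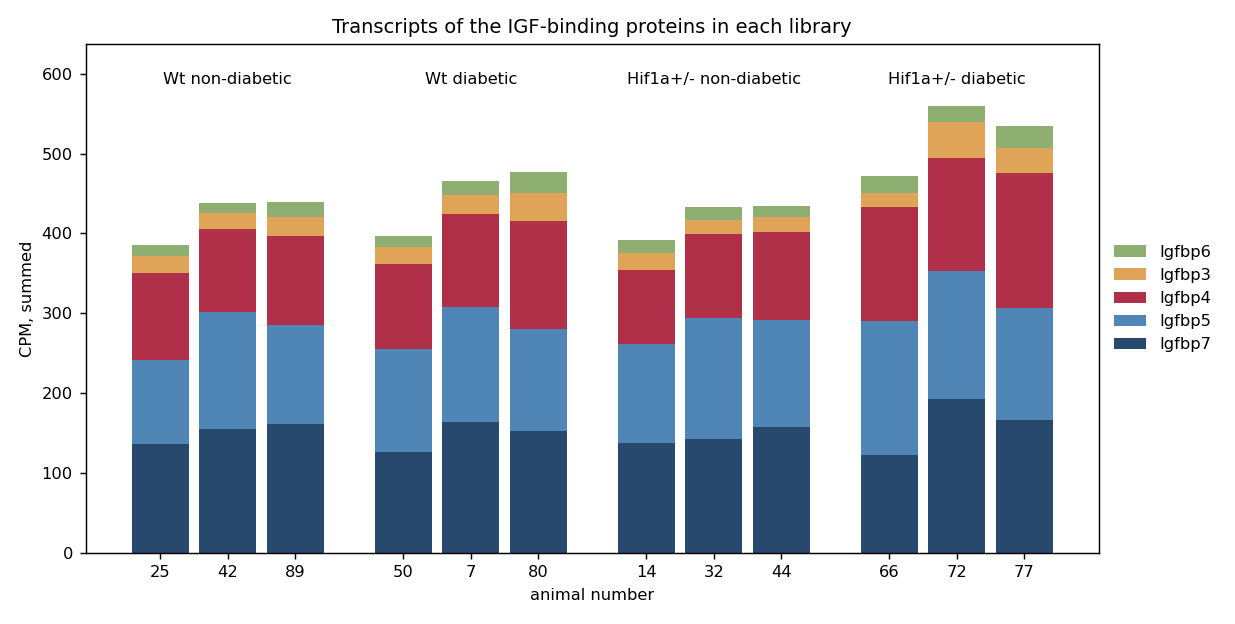
Stacked CPM (vertical axis, from 0) of 5 binding proteins in each LV, named by animal number; Igfbp2, at 0.151 CPM or less, is left out. The 3 diabetic Hif1a+/- LVs reach 471.9 to 559.1 CPM, above the 439.2 CPM that is the highest of the 6 non-diabetic LVs.

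The sums of adventitial fibroblast and of macrophage markers were higher, without overlap, in diabetic than in non-diabetic Hif1a+/- LVs. The sums of the other cell type lists overlapped in that comparison. The 4 adventitial fibroblast markers (Pi16, Mfap5, Cd248 and Dpp4) summed to between 166.2 and 380.4 CPM in diabetic Hif1a+/- LVs and to between 88.5 and 132.4 CPM in the other 9. All 4 were higher in diabetic than in non-diabetic Hif1a+/- LVs, with a median log2 fold change of 0.99, 3 of them at an unadjusted p under 0.05 and 0 past an edgeR adjusted p of 0.1. Dpp4, unlike the other 3, had its highest mean in diabetic Wt LVs (4.76 CPM, against 4.19 CPM in diabetic Hif1a+/-). The 5 macrophage markers (Csf1r, Cd68, Adgre1, C1qa and Mrc1) summed to 203.1 to 320.7 CPM in diabetic and 104.0 to 162.0 CPM in non-diabetic Hif1a+/- LVs. They summed to 133.6 to 194.5 CPM in non-diabetic and 145.7 to 238.0 CPM in diabetic Wt LVs. All 5 were higher in diabetic than in non-diabetic Hif1a+/- LVs, with a median log2 fold change of 0.79 and an unadjusted p under 0.05 for each. The study, by contrast, counted stained macrophages in LV sections and reported a significant rise in diabetic Wt hearts only. The marker sums are RNA levels and not cell counts, and why they differ from that count was not tested. The 5 general fibroblast markers overlapped, at 1086.6 to 1361.3 CPM in diabetic and 1059.2 to 1110.0 CPM in non-diabetic Hif1a+/- LVs. All 5 of them (Col1a1, Col1a2, Pdgfra, Dcn and Tcf21) were higher in the diabetic group, with a median log2 fold change of 0.24, 2 of them at an unadjusted p under 0.05 and 0 past an edgeR adjusted p of 0.1. Of the adventitial markers Pi16, Mfap5 and Cd248, and of the macrophage markers C1qa and Mrc1, are on the list of changed genes that the study drew from these libraries, so their direction is not independent evidence. None of these lists had a marker at 0 throughout, and their part in the levels of the binding proteins was not tested.

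Across the 12 LVs, log2 Igfbp4 and the log2 macrophage sum had a Pearson r of 0.84 and a Spearman rho of 0.84 (permutation p = 0.00065 and 0.00123, adjusted over 96 relations 0.0182 and 0.0419). Both were higher in diabetic Hif1a+/- LVs than in all non-diabetic LVs. Permutations over the 12 LVs ignored the groups, so these p values do not separate differences between groups from variation within them. Without the 2 LVs farthest from the median of Igfbp4, r was 0.67. Within groups, as deviations from the group means, it was 0.62 (permutation p = 0.0787, adjusted 0.45). For Igfbp6 and the macrophage sum r was 0.84 and rho 0.85 (permutation p = 0.00076 and 0.00086, adjusted 0.0182 and 0.0419), 0.63 without the 2 farthest LVs, and 0.73 within groups (permutation p = 0.0255, adjusted 0.41). Because the adventitial sum separated the diabetic Hif1a+/- LVs from the rest, only the correlation within groups is given for it: 0.56 with Igfbp4 (permutation p = 0.17, adjusted 0.52) and 0.62 with Igfbp6 (permutation p = 0.0826, adjusted 0.45). Other lists were as close. The general fibroblast sum had r of 0.67 with Igfbp4 and 0.76 with Igfbp6 over the 12 LVs (permutation p = 0.0179 and 0.00479, adjusted 0.12 and 0.0511). Within groups these were 0.64 and 0.70 (permutation p = 0.0965 and 0.0895, adjusted 0.45 for each). The mural sum had r of -0.63 with Igfbp4 within groups (permutation p = 0.0733, adjusted 0.45).

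**Figure D4:**
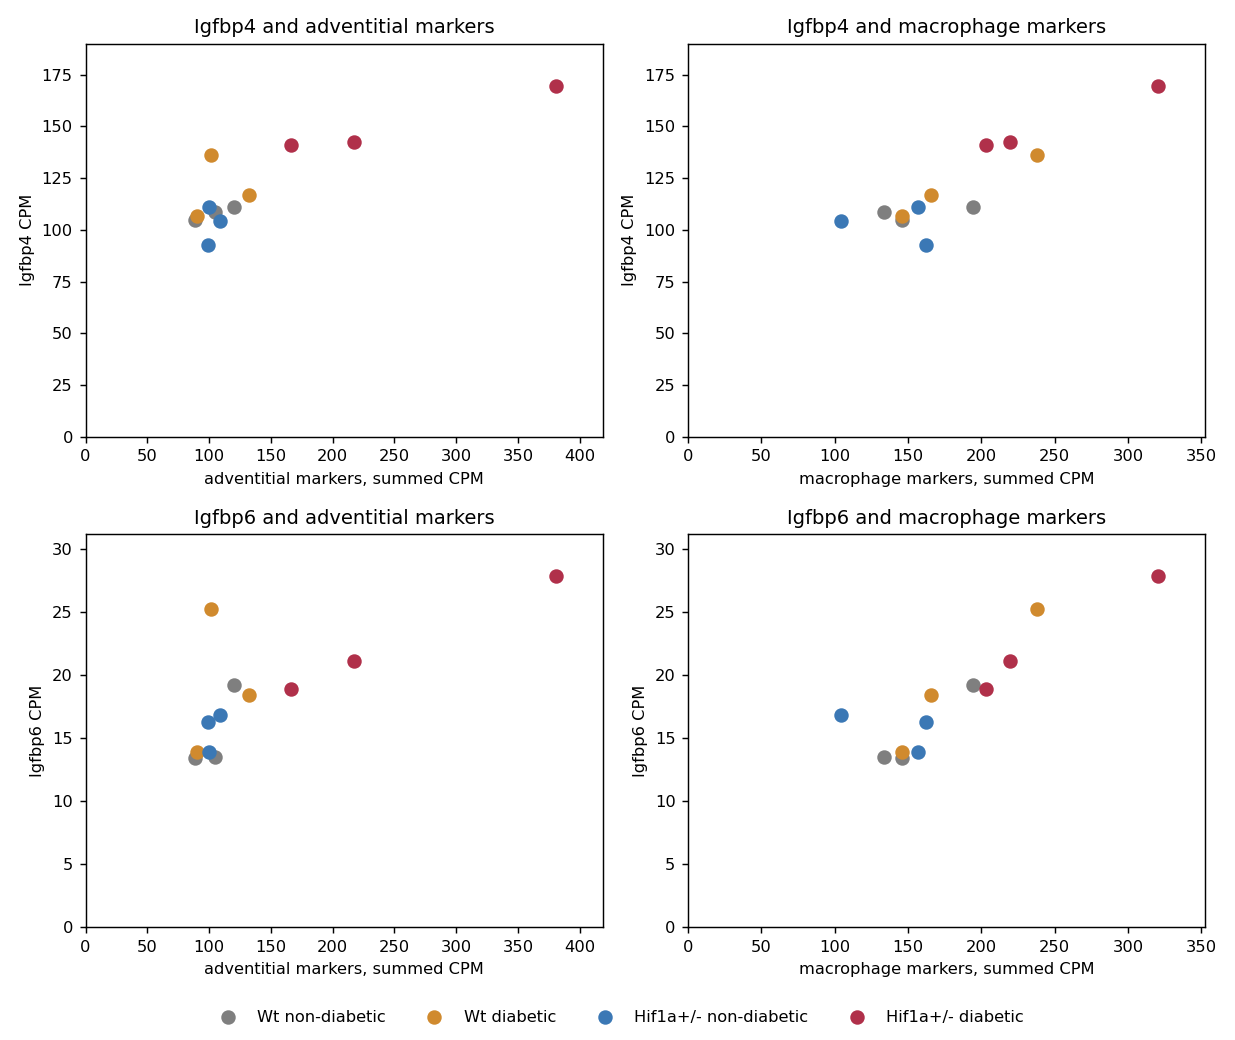
Igfbp4 and Igfbp6 (vertical axes, CPM from 0) against the summed CPM of adventitial and of macrophage markers (horizontal axes) in the 12 LVs, coloured by group. The LV with 380.4 CPM of adventitial and 320.7 CPM of macrophage markers also has the highest Igfbp4 (169.5 CPM) and Igfbp6 (27.8 CPM).

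Among the members themselves, 2 of 36 pairs (Igfbp2 included) passed an adjusted p of 0.1 over the 12 LVs. Igfbp4 and Igfbp6 went together (Pearson r 0.81, rho 0.76, permutation p = 0.00192 and 0.00585, adjusted 0.0691 and 0.11), with r of 0.64 without the 2 farthest LVs and 0.70 within groups (adjusted p = 0.38, permutation). Igf2r and Igfbp7 went in opposite directions (r -0.76, rho -0.82, permutation p = 0.00395 and 0.00193, adjusted 0.0711 and 0.0695), with r of -0.71 without the 2 farthest LVs and -0.78 within groups (adjusted p = 0.38, permutation). Within groups another pair passed instead, Igf1 and Igfbp7, with r of -0.86 (permutation p = 0.000772, adjusted 0.0278), against -0.60 over the 12 values and -0.30 without the 2 farthest LVs.

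The rest of the pathway was followed in 38 genes in 5 lists, of which 34 were tested. By edgeR 0 of 34 passed an adjusted p of 0.1 in any comparison, and the counts below are of unadjusted p under 0.05. In the list of other ligands, receptors and carriers (Igf2, Insr, Insrr, Igfals, Igfbp1 and Igfbpl1), 4 of 6 were tested and 2 of 4 had such a p, both higher, in diabetic against non-diabetic LVs over both genotypes, against 11.3% of all genes (5.47% higher). Igf2, the fetal growth ligand that Igf2r clears, was at 31.0, 36.5 and 26.8 CPM in non-diabetic and 41.9, 47.2 and 43.2 CPM in diabetic Wt LVs, without overlap. In Hif1a+/- it was at 25.4, 28.7 and 33.5 CPM without and 50.8, 35.3 and 29.4 CPM with maternal diabetes, with overlap. Its log2 fold change with diabetes was 0.49 (SE 0.18) in Wt and 0.41 (SE 0.18) in Hif1a+/-, and over both genotypes 0.45 (SE 0.13) with an adjusted p of 0.282 by edgeR and 0.0634 by DESeq2, the one call by DESeq2 in these lists among the 8 comparisons with a direction. Igfbpl1, a relative of the binding proteins, was low, at 0.286 to 1.1 CPM, with a log2 fold change of 0.60 (SE 0.28) over both genotypes and an edgeR adjusted p of 0.437. Igfbp1 had 0 reads in all 12 libraries and Insrr, an orphan receptor related to the insulin receptor, had 5.

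Proteases that release IGFs, and their inhibitors, gave 0 of 6 tested genes in any comparison with a direction. Their lowest p values for any difference among the groups were those of Ctsd, a lysosomal protease (0.365, edgeR adjusted 0.938), and Htra1, a secreted serine protease (0.48, adjusted 0.961). Pappa2 was not tested, with 28 reads. Of the growth hormone axis, which drives Igf1 transcription, 6 of 6 genes were tested. Stat5a, a signal transducer of the growth hormone receptor, was higher in Hif1a+/- than in Wt LVs after diabetic pregnancy (log2 fold change 0.32, SE 0.12, edgeR adjusted p = 0.862). It was 1 of 6, against 5.35% of all genes. Cish, a feedback inhibitor and target of STAT5, was lower in Hif1a+/- over both pregnancies, with overlap (-0.57, SE 0.22, edgeR adjusted p = 0.999). In that comparison 1 of 6 was lower and 1 higher, against 2.69% of all genes. The receptor Ghr, named after its value was seen, was the 1 gene of this list with such a p between Hif1a+/- LVs with and without maternal diabetes, 1 of 6 against 12.0% of all genes (-0.24, SE 0.10, edgeR adjusted p = 0.392).

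Downstream of the receptor, 16 of 16 signalling genes were tested. In diabetic against non-diabetic Hif1a+/- LVs, 5 were higher and 11 lower, with a median log2 fold change of -0.12, and 1 of 16 had an unadjusted p under 0.05. Over all genes 49.0% were higher in that comparison and 12.0% had such a p. The 1 gene was Akt1, the kinase that PI3K activates, at 202.9, 214.3 and 222.3 CPM without and 239.7, 260.1 and 245.0 CPM with maternal diabetes, without overlap (0.22, SE 0.09, edgeR adjusted p = 0.371). Over both genotypes Akt1 was higher (0.18, SE 0.06, edgeR adjusted p = 0.337) and Pik3ca, a catalytic subunit of PI3K, was lower (-0.16, SE 0.07, edgeR adjusted p = 0.43). They were 1 of 16 higher and 1 of 16 lower at an unadjusted p under 0.05, against 11.3% of all genes. Of the IGF2 mRNA-binding proteins, which bind Igf2 transcripts, Igf2bp3 was at 4 to 16 reads per library, with a log2 fold change of -1.01 (SE 0.42) with maternal diabetes in Hif1a+/- and an edgeR adjusted p of 0.385. It was 1 of 2 tested genes of its list with an unadjusted p under 0.05 there, against 12.0% of all genes. Igf2bp2 was at 2.63 to 9.63 CPM, with an edgeR adjusted p of 0.983 for any difference, and Igf2bp1 had 2 reads in all.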

How the data were processed

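The authors made 3′-seq libraries from the RNA of 12 LVs. Reads of ribosomal and mitochondrial origin were taken out, and the others were aligned with STAR (version 2.5.2b, per the labels) to GRCm38 and assigned to genes with HTSeq in union mode; the strand setting is not given in the sources used here. The deposited counts are raw, with no normalization by the authors, and 5 tally lines, between 20.2% and 24.18% of reads, were left out. The deposited normalized counts were not used. Symbols and coordinates came from GENCODE M21 (GRCm38), with 46488 of 46983 genes matched, and promoters from RefSeq, with 9 of 9 members matched.

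Counts were fitted with edgeR (version 4.0.16, R 4.3.3; TMM, default filter on low counts, 1 mean per group, 12 libraries, quasi-likelihood test) with Benjamini-Hochberg adjustment over 14706 genes, at a threshold of 0.1. The fit had 8 residual degrees of freedom and a biological coefficient of variation of 13.7%. Alternatives were DESeq2 (1.42.0), limma-voom with quality weights (limma 3.58.1), DESeq2 size factors, no filter, only the groups compared, an additive model, a threshold of 0.05 and leaving out each library; leaving out libraries in DESeq2 and the correlations with markers were added after the data were seen. Correlations used log2(CPM + 1) and permutation tests with 100000 resamples; within groups, labels were permuted exactly inside each group. Scripts were tested on simulated data. Libraries of 1 group differed by a chi-square of 5.99 or more per gene over 11795 genes, so none was counted as a duplicate, and the study's methods place them in different litters.

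Named genes were the members, Hif1a, partner genes past the threshold or with the 2 smallest p values of any difference in each list or not tested, and the 3 genes most correlated with each member. Members and lists were chosen with earlier results of these data known.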

Additional observations from a re-analysis of the deposited data

Results flagged for a closer look

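Igf1 was flagged because its diabetes effects pointed in opposite directions in the 2 genotypes: every diabetic Wt LV lay below the mean of non-diabetic Wt and every diabetic Hif1a+/- LV above the mean of non-diabetic Hif1a+/-. The log2 fold change with maternal diabetes was 0.42 larger in Hif1a+/- than in Wt (SE 0.23), and the interaction test missed the threshold, with an adjusted p of 0.998 by edgeR.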

How the results depend on the processing

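No paired analysis was made. Each animal had 1 genotype and came from 1 pregnancy, and the labels used here do not name the litter. Whether Wt and Hif1a+/- LVs included littermates is therefore not known. The edgeR count of members past the threshold was 0 in every comparison. It became 1 in DESeq2 and 3 without a filter (Igfbp3, Igfbp4 and Igfbp6) for diabetic against non-diabetic Hif1a+/-, diabetic Hif1a+/- against non-diabetic Wt, diabetes over both genotypes and any difference among the 4 groups. In diabetic against non-diabetic Hif1a+/- it was 2 in limma-voom and 1 with only the 2 groups compared. Leaving out 1 library at a time gave 0 to 1 members by edgeR in that comparison, 1 without Wt diabetic replicate 80 or Hif1a+/- diabetic replicate 72, and 0 in the others. DESeq2 gave 1 to 2 there, 0 to 1 in Hif1a+/- against Wt after diabetic pregnancy, 0 to 2 in diabetic Hif1a+/- against non-diabetic Wt and 1 to 3 for diabetes over both genotypes. Igfbp4 against non-diabetic Wt was lost in DESeq2 without Wt non-diabetic replicates 25 or 42 or Hif1a+/- diabetic replicate 77, with a highest adjusted p of 0.37. Among pairs of members 2 passed over the 12 values and 1 within groups. Over all genes, diabetic against non-diabetic Hif1a+/- gave 0 calls in edgeR, 201 in DESeq2 and 937 in limma-voom. Calls over all genes without the filter were not counted, so the 3 members past the threshold in that fit have no background. Of 1912 member log2 fold changes recomputed, 1853 stayed on their side of the threshold, 59 passed it newly and 0 called values reversed; 157 uncalled values changed sign, none of which exceeded 0.28 in size before. The cause of these differences was not tested. Depth limits Igfbp2, with 8 reads in all; the other members had at least 118 reads in every library.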

Other observations

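For each member the 3 tested genes with the most similar pattern over the 12 LVs were listed by the Pearson r of log2(CPM + 1), with no test. For Igf1 they were Aqp4 (0.861), Nr6a1 (0.841) and Trabd2b (0.838). For Igf1r they were Notch4 (0.947), Urb1 (0.924) and Best3 (0.924), and for Igf2r Ryr2 (0.945), Slc25a40 (0.925) and Nup155 (0.914). Among the binding proteins, Igfbp4 was most like Dpt (0.962), Laptm5 (0.948) and 1700120C14Rik (0.947), and Igfbp6 most like Cndp2 (0.965), Ptpro (0.949) and Cyp4v3 (0.945). For Igfbp3 they were ENSMUSG00000092486 (0.917), Tmem88 (0.91) and Zbtb7c (0.91), for Igfbp5 Alyref2 (0.897), Gm17201 (0.854) and Gm12439 (0.845), and for Igfbp7 S1pr2 (0.937), A930004D18Rik (0.921) and Pcdh9 (0.921). The group means were left in.

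The 8 tested members were also correlated with 12 marker lists, 96 relations in all, of which 12 passed an adjusted p of 0.1 over the 12 values and 0 within groups. Igf2r and the fibroblast markers went in opposite directions, with r -0.86 and rho -0.83 (permutation p = 0.00035 and 0.00131, adjusted 0.0182 and 0.0419). Without the 2 farthest LVs r was -0.90, and within groups -0.86 (permutation p = 0.00154, adjusted 0.15). Igfbp6 went opposite to the mural markers (Acta2, Tagln, Rgs5, Pdgfrb and Kcnj8), with r -0.80 (permutation p = 0.00186, adjusted 0.0298). It also went opposite to the epicardial and mesothelial markers (Upk3b, Msln, Lrrn4 and Wt1), with r -0.77 (permutation p = 0.00271, adjusted 0.0372). Within groups these were -0.80 and -0.91 (permutation p = 0.0208 and 0.00617, adjusted 0.41 and 0.3). Igf1r and the endothelial markers had r 0.83 and rho 0.65 (permutation p = 0.00136 and 0.0251, adjusted 0.0261 and 0.20). Within groups r was 0.84 (permutation p = 0.0532, adjusted 0.45). Without the 2 farthest LVs r was 0.44, so the strength of the relation over the 12 values depends on those LVs.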
